A study of Homo sapiens with 39 samples.

Results

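ATF4 and 9 genes of its serine, one-carbon and stress programme were followed through 39 RNA-seq libraries of HCT116, an established line from a human colorectal carcinoma. The 10 genes were taken by name from the 45435 gene rows of the expression tables: ATF4, ASNS, PSAT1, PHGDH, PSPH, SHMT2, MTHFD2, DDIT3, TRIB3 and CHAC1. All 10 were found in every table, and all 10 passed the filter of a mean of at least 1 TPM (abundance per transcript length, scaled to a fixed sum in each library). The libraries formed 13 groups of 3. One group was the parental Flp-In T-REx host line, which carried no HNF4A construct. The other 12 groups were stable lines, each with a single inserted copy of 1 of the 12 isoforms of HNF4A (hepatocyte nuclear factor 4 alpha, a nuclear receptor of liver and gut) joined to GFP at its C-terminus. Doxycycline, the inducer, was given at 2.5 µg/ml over 48 h in all 13 groups, parental cells included, and selection ended when it was added. The selecting antibiotics had been blasticidin with zeocin for the parental cells and blasticidin with hygromycin B for the lines. Each isoform was represented by 1 line and no group made GFP alone, so the isoform, GFP, the earlier antibiotic and the derivation of the line cannot be told apart. Nothing in the labels says that the 3 libraries of a group came from separate cultures, so p-values measure the spread between these libraries, which may be technical.

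ATF4 is a transcription factor whose protein is made more when the initiation factor eIF2 is phosphorylated, as happens when amino acids are short or proteins misfold in the endoplasmic reticulum. With partners of the C/EBP family it binds composite elements and raises genes for amino acid supply. PHGDH, PSAT1 and PSPH carry out, in that order, the steps from the glycolytic intermediate 3-phosphoglycerate to serine, and SHMT2 and MTHFD2 pass a carbon of serine into mitochondrial folate metabolism. ASNS makes asparagine. DDIT3 (CHOP), TRIB3 and CHAC1 belong to the later stress response: a transcription factor, a pseudokinase that restrains it, and an enzyme that breaks down glutathione.

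The labels were checked first. HNF4A stood at 30.8 to 31.9 TPM in the parental libraries and at 407 to 1109 TPM in the libraries of the lines, and was higher in all 12 lines, by log2 fold changes between 4.24 and 5.04 (SE 0.137). The lowest value, 407 TPM, belonged to isoform 3 replicate 1, whose partners had 833 and 772 TPM. Among the colon epithelial markers, group means were 438 to 595 TPM for EPCAM, 1043 to 2396 for KRT8, 597 to 1607 for KRT18 and 21.1 to 58.2 for CDH1, while KRT20 stayed between 0.608 and 1.03 TPM. The white blood cell markers PTPRC, CD3E and LYZ had group means of at most 0.124, 0.0364 and 0.306 TPM. COL1A2, DCN and VWF reached at most 0.0235, 0.0672 and 0.494 TPM, COL1A1 8.91 to 12.96 and PECAM1 1.46 to 5.75.

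Elements of the kind that ATF4 binds were looked for in the RefSeq promoter windows (GRCh38.p14, 250 bases before to 50 after a start), which hold 8 of the 10 genes (PSPH and SHMT2 are without an entry). The core of the C/EBP-ATF response element, TGATGNAAN on either strand, occurred in the windows of ASNS and CHAC1. Across all 35116 windows 3.61% held it, and counted by gene 4.45% of 27305 genes had it in at least 1 window. Both sites are shown because these genes carry the element and yet differed in size of change, CHAC1 far more than ASNS. Each is written in the direction of its gene with 10 bases on either side and the element in capitals. The ASNS site starts 68 bases before the RefSeq start (chr7:97872458-97872486, minus strand), and that of CHAC1, whose letters match the element on the opposite strand, 210 bases before it (chr15:40953251-40953279, plus strand). The GENCODE bounds of both genes begin further upstream, so these positions lie inside the genes as annotated there.
ASNS: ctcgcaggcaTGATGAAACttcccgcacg
CHAC1: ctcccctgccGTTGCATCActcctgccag
The HNF4 motif CAAAGTCCA was in 0.384% of all windows and the ER stress element in 0.0769%, and neither was in a window of the 8 genes. A match describes letters in a window and does not show binding.

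Each line was then compared with the parental cells, which asks how a gene's mRNA differs when 1 HNF4A isoform is made. PHGDH, the enzyme that opens serine synthesis, was the member that changed most widely: it was lower in 8 of the 12 lines, and its mRNA in the isoform 1, 2 and 7 lines was at 0.451, 0.515 and 0.512 of the parental mean. The other members moved little or in few lines, apart from the isoform 1 line, where ATF4, CHAC1, DDIT3, PSAT1, ASNS and TRIB3 were higher. Of 120 gene-line pairs, 10 passed as higher, 19 as lower and 91 did not pass (limma on log2(TPM + 1), Benjamini-Hochberg adjusted p under 0.05 over 15003 genes). Leaving out the isoform 1 line left 6 pairs higher and 23 lower. The 12 comparisons share the same 3 parental libraries. RNA was measured in bulk, so fewer cells with a transcript and less of it per cell cannot be told apart.

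**Figure D1:**
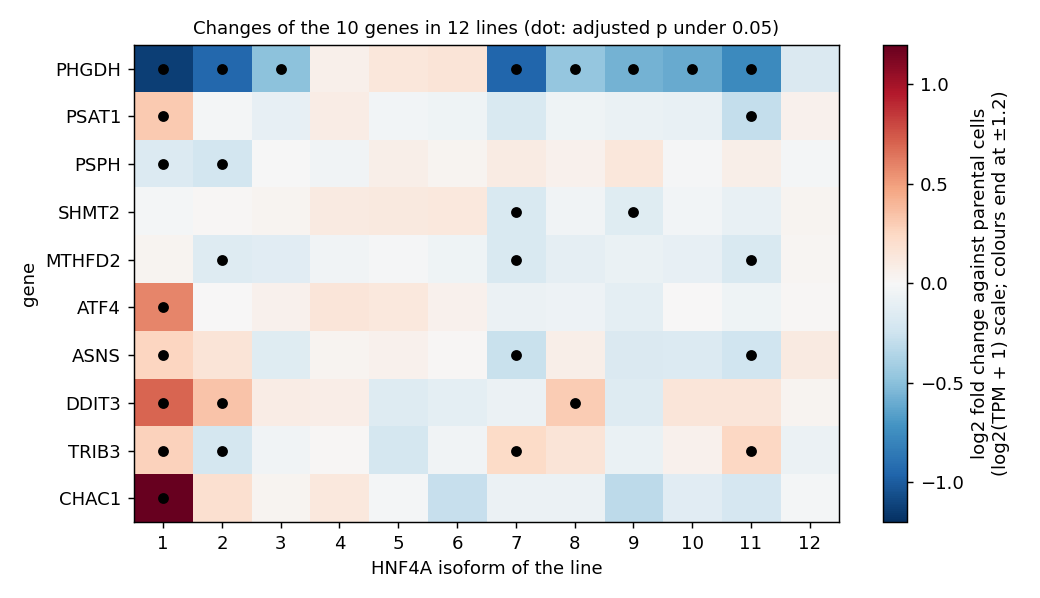
Log2 fold change of each of the 10 genes (rows) in each of the 12 HNF4A lines (columns) against parental cells, on the log2(TPM + 1) scale; a dot marks an adjusted p under 0.05 and CHAC1 in isoform 1 (2.44) lies beyond the end of the colours. The row of PHGDH is blue with a dot in 8 lines, and the column of isoform 1 holds 6 of the 10 higher calls.

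These counts stand against many changed genes in every line. With isoform 1, 6 members were higher and 2 lower, where 19.8% of all tested genes were higher and 38.7% lower. At a minimum of 2-fold, CHAC1 was higher and PHGDH lower there, and 2.74% and 1.78% of tested genes passed in those directions. With isoform 2, 1 member was higher and 4 lower, against 19.7% and 35.6% of all genes. Isoforms 7 and 11 each had 1 member higher and 4 lower, against 13.4% higher and 26.2% lower genes with isoform 7 and 14.5% and 24% with isoform 11. The isoform 8 line had 1 in either direction, against 16.9% and 17.5%. For isoform 9, 2 members were lower and none higher (10.9% of genes higher, 11.8% lower). PHGDH was the single member to pass with isoform 3 (11.2% higher, 14.7% lower) and with isoform 10 (17% and 20.4%), both times as lower. No member passed in isoforms 4 (6.26% higher, 10.1% lower), 5 (9.57%, 5.22%), 6 (5.94%, 4.13%) or 12 (7.92%, 6.65%). In numbers alone, then, the members' share was near that of all genes in most lines. The median log2 fold change of the members was 0.266 with isoform 1, against −0.107 over all genes, and between −0.139 and 0.069 in the other 11 lines, against −0.09 to 0.012.

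PHGDH lies on chromosome 1 from 119648411 to 119744226 (GRCh38, GENCODE 29) and encodes the dehydrogenase that commits 3-phosphoglycerate to serine. The parental libraries had 72.2, 75.1 and 76.7 TPM of PHGDH. Those of isoform 1 had 36.2, 29.1 and 35.8, those of isoform 2 35.1, 43.3 and 37.0, and those of isoform 7 38.6, 39.5 and 36.7 TPM. All 9 were far below the lowest parental library. The log2 fold changes were −1.13, −0.94 and −0.95 (SE 0.085 each), with limma adjusted p of 1.51e-12, 1.01e-10 and 2.14e-10.

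A middle range of PHGDH levels was seen in 5 further lines. PHGDH was at 42.3, 44.7 and 43.3 TPM with isoform 11, a log2 fold change of −0.77. With isoform 10 the libraries had 46.7, 47.4 and 52.4 TPM (−0.60), and with isoform 9 they had 46.6, 52.5 and 51.3 TPM (−0.57). Every one of these 9 libraries was below the parental range. The isoform 8 line had 54.5, 52.0 and 55.1 TPM (−0.46, adjusted p 7.6e-05 in the limma fit). The isoform 3 line was uneven, with 64.8, 49.4 and 45.7 TPM (−0.49, adjusted p 5.96e-05), and the library with 64.8 TPM was the one with the low HNF4A of 407 TPM. The part of the HNF4A level in this value was not tested.

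In the lines of isoforms 4, 5, 6 and 12, PHGDH did not pass the test. Its libraries ranged from 73.9 to 80.6 TPM with isoform 4, from 79.9 to 84.3 with isoform 5 and from 80.1 to 86.3 with isoform 6, and the log2 fold changes were 0.06, 0.14 and 0.15. The isoform 12 libraries were close together at 65.9, 65.8 and 66.7 TPM, all below the parental range, and its fold change on the log2 scale was −0.17 (SE 0.085). In the fit of that line and the parental libraries alone, isoform 12 passed as lower (adjusted p 0.0224) and isoform 5 as higher (adjusted p 0.0343, both limma). The authors' deposited table gave isoform 12 as −0.15 with an adjusted p of 0.0133, isoform 5 as 0.12 with 0.0123 and isoform 6 as 0.16 with 0.00305.

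**Figure D2:**
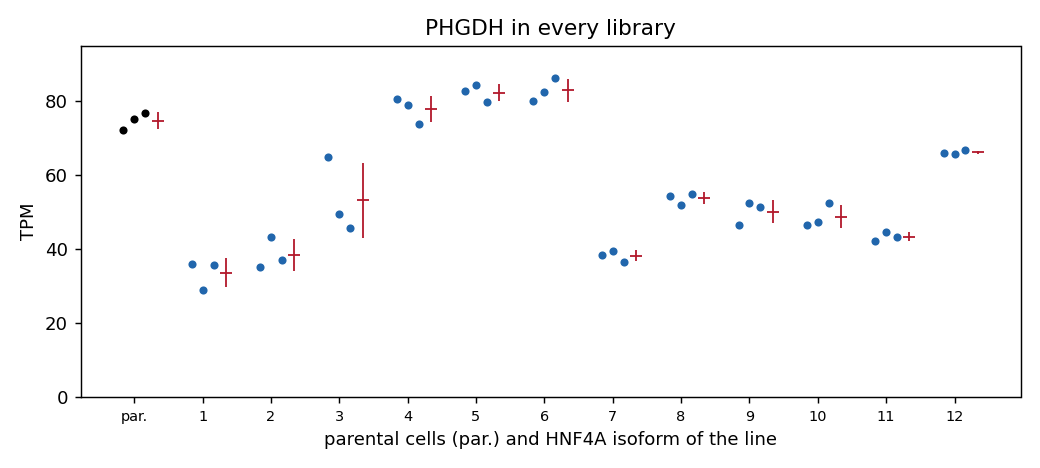
PHGDH in TPM in each of the 39 libraries (points; parental black, lines blue), with the mean and SD of each group in red. Isoforms 4, 5 and 6 lie within or above the parental range, and isoforms 1, 2 and 7 are lowest.

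Ordered by group mean, PHGDH ran from 82.99 TPM ± 3.09 (SD, n = 3) with isoform 6 to 33.7 TPM ± 3.98 (SD, n = 3) with isoform 1. Of the 12 steps between neighbours in this order, 8 had overlapping libraries. The 4 without overlap were parental to isoform 12, isoform 12 to isoform 8, isoform 10 to isoform 11, and isoform 7 to isoform 1. The HNF4A transcript differed between the lines as well. The isoform 6 line had the most HNF4A (1071 TPM) and the highest PHGDH, and isoforms 4 and 5, next in PHGDH, had 856 and 852 TPM of HNF4A. Isoform 9, with the second most HNF4A (948 TPM), had PHGDH at 50.1 TPM, and the isoform 2 and 11 lines had the least HNF4A (614 TPM each) with PHGDH at 38.5 and 43.4 TPM. The part of the HNF4A level in these differences was not tested.

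The isoforms share parts, and in the standard nomenclature isoforms 1 to 3, 4 to 6, 7 to 9 and 10 to 12 have 4 different N-termini, while isoforms 3, 6, 9 and 12 end in a short C-terminus and isoforms 2, 5, 8 and 11 carry a small insertion. Lines were the units here (12 line means, 6 residual degrees of freedom, limma). PHGDH was higher in isoforms 4 to 6 than in 1 to 3 by 0.97 (SE 0.135, adjusted p 0.00207) and lower in 7 to 9 than in 4 to 6 by 0.78 on the log2 scale (adjusted p 0.0116). DDIT3 was lower in isoforms 4 to 6 than in 1 to 3, a difference of −0.44 (SE 0.131, adjusted p 0.0292), and 22.1% of all genes were higher and 12.6% lower in that contrast. SHMT2 was lower in 7 to 9 than in 4 to 6, a difference of −0.24 (SE 0.045, adjusted p 0.0137), with 8.16% of genes higher and 8.7% lower. PSPH was higher in 7 to 9 than in 1 to 3 by 0.22 (SE 0.059, adjusted p 0.0415), against 6.65% of genes higher and 4.95% lower. These 5 were the pairs that passed, of 60 tested.

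No member passed in the other 3 class contrasts, all limma fits. Between isoforms 10 to 12 and 7 to 9, 0% of all genes passed in either direction. An unadjusted p under 0.05 was found for 0 members and for 1132 of the 15003 tested genes. Between the forms with and without the insertion 0% passed as well, with 0 members and 454 genes at the unadjusted level. For the short C-terminus against the other ends, 0.0133% of genes passed as lower and 0% as higher. There 2 of the 10 members and 2724 of the 15003 genes had an unadjusted p under 0.05. PHGDH was higher with the short end by 0.31 (adjusted p 0.168). Within each set of 3 lines sharing an N-terminus, the short-ended line had more PHGDH than the full-length one: 53.3 against 33.7 TPM for isoforms 3 and 1, 82.99 against 77.8 for 6 and 4, 50.1 against 38.3 for 9 and 7, and 66.2 against 48.8 for 12 and 10. Against the line with the insertion this was not so in every set: isoform 8 had 53.8 TPM, above isoform 9, and isoform 5 had 82.3 TPM, near isoform 6, while isoforms 2 and 11 (38.5 and 43.4 TPM) were below isoforms 3 and 12.

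The other enzymes changed by less than PHGDH and passed in fewer lines, at most 3 each as lower. PSAT1, the aminotransferase of the following step (chromosome 9, 78297143 to 78330093), had 135, 140 and 133 TPM in parental cells and 111, 117 and 108 TPM with isoform 11, the single line in which it was lower (log2 fold change −0.28, SE 0.077, limma adjusted p 0.00407). Its isoform 1 libraries had 177, 137 and 203 TPM, a log2 fold change of 0.32 (adjusted p 0.000741, limma). The middle one of these lay inside the parental range.

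PSPH, the phosphatase that releases serine (chromosome 7, 56011051 to 56051604), stood at 46, 44.1 and 45 TPM in parental cells. It was lower with isoform 1 (39.6, 41.4 and 39.2 TPM; −0.17, SE 0.052) and with isoform 2 (38.8, 39.4 and 37.8 TPM; −0.22). All 6 libraries were below the parental ones. The pseudogene row PSPHP1, on the same chromosome, was at 46.4, 51.1 and 47.3 TPM in parental cells and rose in the same lines, by 0.42 with isoform 1 and 0.53 with isoform 2 (limma adjusted p 0.000244 and 1.58e-05). PSPHP1 was also higher with isoforms 3, 10 and 12 (0.25, 0.40 and 0.28). PSPH did not pass in those lines (−0.007, −0.018 and −0.024). A pseudogene can share reads with its gene, so the split of reads between PSPH and PSPHP1 is uncertain.

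SHMT2, the mitochondrial enzyme that converts serine to glycine (chromosome 12, 57229327 to 57234935), was among the steadiest members. Its parental libraries had 149.9, 147.4 and 148.6 TPM, and over all 39 libraries it ranged from 124.8 to 168.3 TPM. It was lower with isoform 7 (134.1, 134.8 and 124.8 TPM; −0.18, SE 0.043, limma adjusted p 0.0013) and isoform 9 (131.5, 135.6 and 135.8 TPM; −0.14, adjusted p 0.0143).

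MTHFD2, the next mitochondrial folate enzyme (chromosome 2, 74198562 to 74217565), was abundant, at 305, 323 and 293 TPM in parental cells. It was lower with isoform 2 (278, 279 and 269 TPM; −0.15), isoform 7 (279.5, 283.7 and 248.4 TPM; −0.18) and isoform 11 (271, 279 and 258 TPM; −0.19), with SE 0.055 each. The highest of these libraries, 283.7 TPM, was below the lowest parental one. Without parental replicate 2, the highest parental library, all 3 calls were lost (limma adjusted p 0.059 to 0.114).

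Size factors changed the calls of these 4 enzymes and of ASNS. With the libraries rescaled by the median of ratios, PHGDH kept its 8 lower calls (−0.996 to −0.428), and these were the 8 lower pairs that remained among the 120, beside 19 higher ones. Under that scaling SHMT2 was higher in 4 lines, with isoform 1 among them (0.11, adjusted p 0.0401, limma), PSPH was higher with isoforms 7, 9 and 11, and PSAT1, PSPH, SHMT2, MTHFD2 and ASNS were lower in none. The authors' deposited tables did have ASNS lower with isoforms 7 and 11 (−0.167 and −0.144, adjusted p 0.0114 and 0.017). They also had PSAT1 lower with isoform 11 (−0.188, adjusted p 0.000389). The median of all genes in the isoform 1 line went from −0.107 to 0.016, and its share of higher and lower genes from 19.8% and 38.7% to 32% and 25.8%. With isoform 2 the shares became 31.1% and 23.8%, with isoform 7 24.6% and 17%, and with isoform 11 25.6% and 16.2%.

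**Figure D3:**
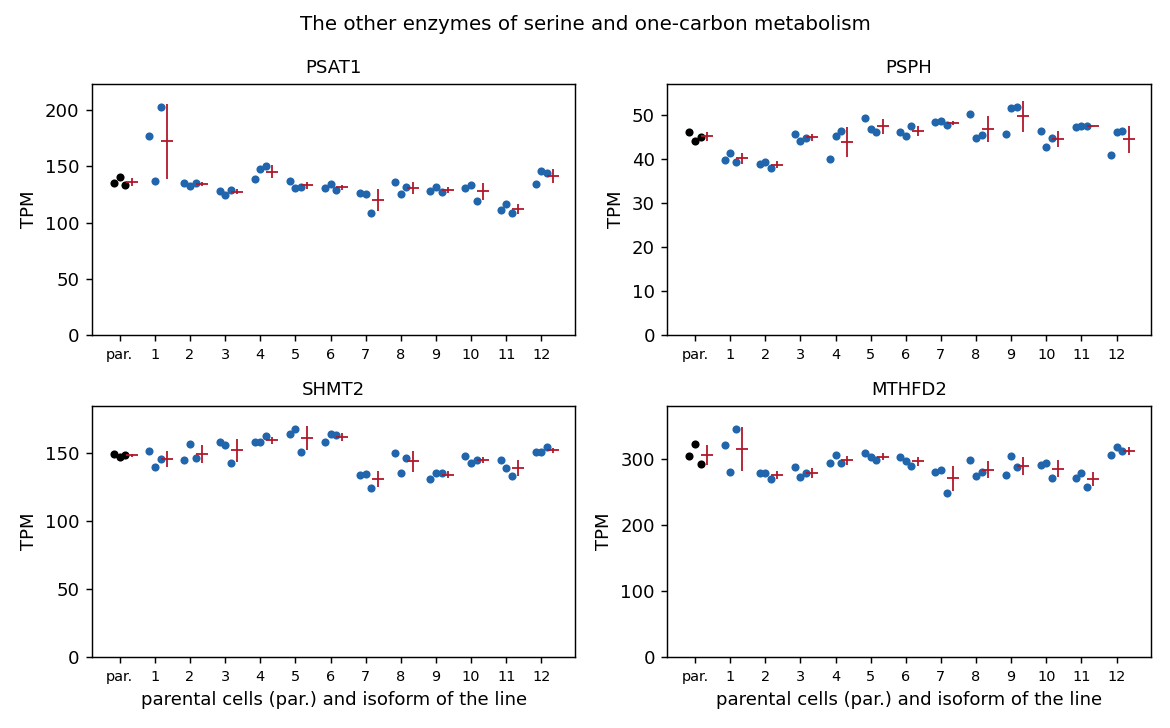
PSAT1, PSPH, SHMT2 and MTHFD2 in TPM in each of the 39 libraries (points; parental black, lines blue), with group mean and SD in red and axes from 0. Group means of these enzymes stay between 0.82 and 1.26 of the parental mean, and the isoform 1 libraries of PSAT1 are spread from 137 to 203 TPM.

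The stress arm of the programme stood out in 1 line. CHAC1 (chromosome 15, 40952962 to 40956519), which breaks down glutathione, was at 4.22, 5.16 and 5.12 TPM in parental cells and at 42.5, 13.8 and 48.0 TPM with isoform 1. Every isoform 1 library was above every other library of the series, the highest of which had 8.03 TPM. This was a difference of 2.44 on the log2 scale (SE 0.241, adjusted p 5.17e-10 by limma). CHAC1 passed in none of the other 11 lines, where group means ran from 3.69 to 5.67 TPM. The authors' deposited table had it higher with isoform 2 as well, at 0.34 (adjusted p 0.0165). The value of 8.03 TPM was 1 isoform 4 library, whose partners had 4.43 and 4.23 TPM and in which ATF4 was also the highest of its group, at 433 against 375 and 359 TPM.

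ATF4 itself (chromosome 22, 39519695 to 39522685) had 362, 344 and 343 TPM in parental cells and 575, 436 and 580 TPM with isoform 1. These 3 libraries were above all parental ones, by 0.59 on the log2 scale (SE 0.073, adjusted p 4.67e-08 by limma). In the other 11 lines ATF4 did not pass, at group means of 322 to 389 TPM. The authors' deposited tables had ATF4 higher with isoforms 2 and 4 as well, at 0.13 and 0.20 (adjusted p 0.00438 and 0.008). After rescaling by the median of ratios neither passed (limma adjusted p 0.208 and 0.0695). ATF4 is controlled largely through translation, which mRNA levels do not show.

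DDIT3 (chromosome 12, 57516588 to 57521737), the transcription factor CHOP, had 14.6, 16.4 and 17.1 TPM in parental cells. It was highest with isoform 1, at 27.6, 22.5 and 30.5 TPM (log2 fold change 0.70, SE 0.109, limma adjusted p 2.06e-06). Smaller differences were seen with isoform 2 (19.2, 21.4 and 21.0 TPM; 0.34) and isoform 8 (20.0, 21.5 and 18.5 TPM; 0.30). In all 3 lines the libraries were above the parental range. Without parental replicate 1, the lowest of its group, the calls with isoforms 2 and 8 were lost (limma adjusted p 0.0552 and 0.142).

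The isoform 1 libraries differed among themselves in these genes. Replicate 2 was the lowest of the 3 for ATF4, CHAC1, DDIT3, ASNS, PSAT1 and TRIB3, while the HNF4A levels of the 3 libraries were alike (806, 776 and 765 TPM). The dip was not limited to the genes called higher. Replicate 2 was also the lowest for PHGDH (36.2, 29.1 and 35.8 TPM), MTHFD2 (321, 280 and 346) and SHMT2 (151.6, 140.2 and 145.8), and the highest for PSPH. ASNS (chromosome 7, 97852118 to 97872542) had 86.6, 87.5 and 89.2 TPM in parental cells and 112, 81.7 and 128 TPM with isoform 1. TRIB3 (chromosome 20, 362835 to 397559) had 30.8, 30.9 and 28.0 TPM in parental cells and 41.8, 27.6 and 41.4 TPM with isoform 1. For both, replicates 1 and 3 were above and replicate 2 below all parental libraries. The calls with all 3 libraries were 0.26 for ASNS and 0.27 for TRIB3 (limma adjusted p 0.00753 and 0.00805). In the fit of the isoform 1 and parental libraries alone, ASNS, TRIB3 and PSAT1 lost their calls (limma adjusted p 0.158, 0.157 and 0.0665). Without replicate 3 ASNS came to 0.12 (adjusted p 0.164) and TRIB3 to 0.18 (0.0952), and without replicate 1 TRIB3 came to 0.17 (0.103).

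With replicate 2 as the lone isoform 1 library, taken to vary like the other groups, CHAC1 (1.35), DDIT3 (0.46) and ATF4 (0.32) still passed as higher and PHGDH (−1.33) as lower, with limma adjusted p of 1.77e-06, 0.0103, 0.00157 and 1.86e-10. ASNS and TRIB3 changed sign to −0.10 and −0.11, PSAT1 came to 0.00 and PSPH to −0.12, and none of these 4 passed (adjusted p 0.201, 0.239, 0.972 and 0.209). The members then counted 3 higher and 1 lower, against 15.1% and 27.8% of all genes. This alternative was chosen after the values were seen. The authors' deposited table likewise had ASNS and TRIB3 in isoform 1 short of 0.05, at adjusted p of 0.0553 and 0.058.

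**Figure D4:**
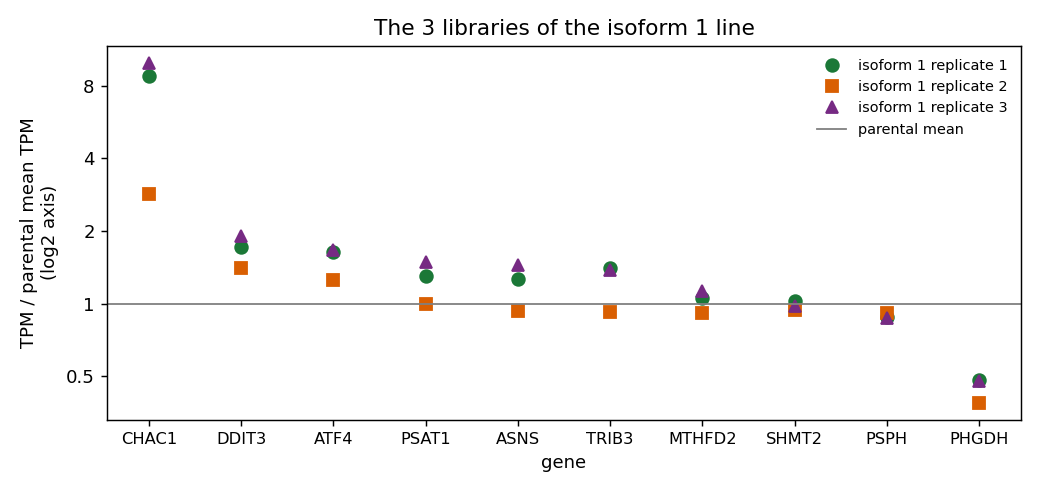
TPM of each of the 10 genes in the 3 isoform 1 libraries, divided by the parental mean, on a log2 axis; the grey line is the parental mean. Replicates 1 and 3 hold 8.8 and 9.93 times the parental CHAC1 and replicate 2 2.85 times, while PHGDH is at 0.389 to 0.484 in all 3.

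ASNS and TRIB3 also passed outside isoform 1, ASNS with isoform 7 by about as much as with isoform 1. ASNS was lower with isoform 7 (71.4, 75.3 and 71.8 TPM; −0.27, SE 0.082, limma adjusted p 0.00984) and isoform 11 (73.2, 76.1 and 73.7 TPM; −0.24, adjusted p 0.0215). TRIB3 was higher in the same lines, isoform 7 (37.0, 35.9 and 33.0 TPM; 0.23) and isoform 11 (35.6, 37.6 and 33.6 TPM; 0.24), and lower with isoform 2 (26.5, 25.5 and 24.9 TPM; −0.21). All libraries of these pairs were outside the parental range on the side given. The calls were close to the threshold: each of the 3 for TRIB3 and that for ASNS with isoform 11 was lost on leaving out at least 1 library. After rescaling by the median of ratios, TRIB3 in isoform 2 was at −0.096 (limma adjusted p 0.397), while its calls with isoforms 7 and 11 held. The authors' deposited table also had TRIB3 in isoform 2 at −0.096, with an adjusted p of 0.206. ASNS in isoform 2 did not pass here (0.15), but was higher after rescaling (0.27, limma adjusted p 0.00568). The authors' table had it higher too, at 0.28 (adjusted p 2.84e-09).

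**Figure D5:**
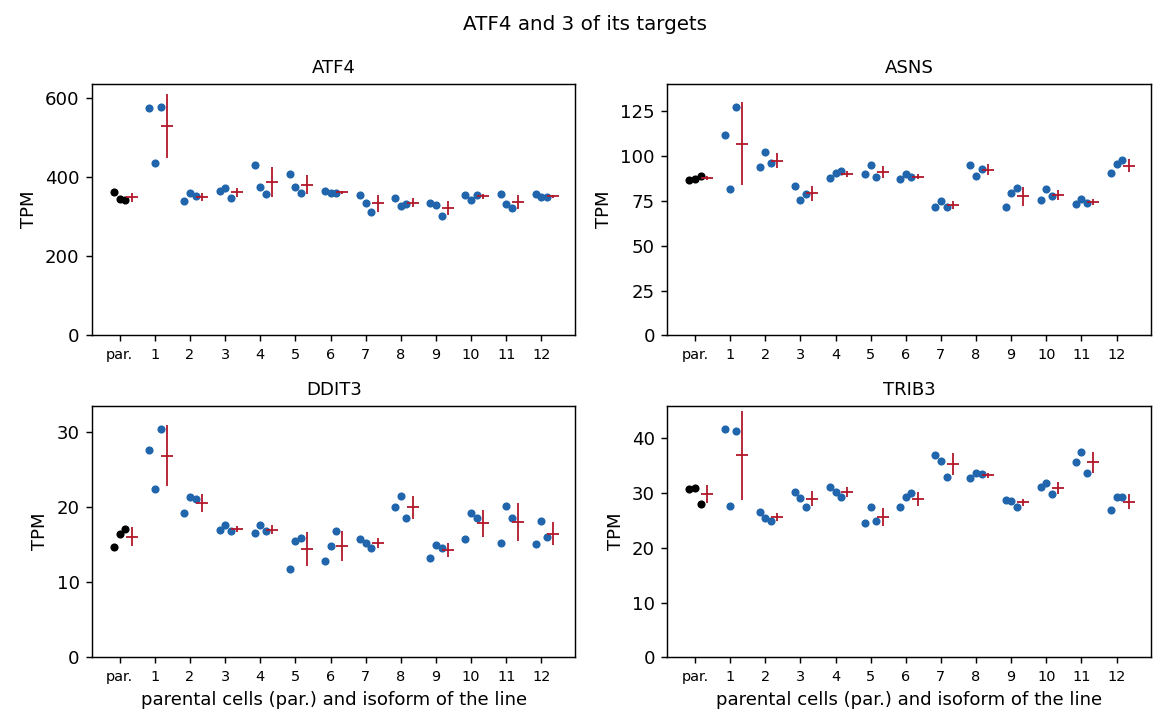
ATF4, ASNS, DDIT3 and TRIB3 in TPM in each of the 39 libraries (points; parental black, lines blue), with group mean and SD in red and axes from 0. The isoform 1 group has the highest mean for all 4 genes and a wide SD, and 2 of its 3 libraries stand above the rest for ASNS and TRIB3.

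The members' group means did not rise and fall as 1 set. Over the 13 groups, Pearson's r of the log2 means was 0.93 between ATF4 and CHAC1 and 0.83 between ATF4 and PSAT1, but −0.18 between ATF4 and PHGDH and 0.02 between PSAT1 and PHGDH. PHGDH had an r of 0.72 with SHMT2 and 0.48 with MTHFD2. These values describe 13 groups that share libraries across genes, and the isoform 1 group weighs heavily in them. The SD of PHGDH's 13 group means was 0.44, at the 94.7 percentile of all tested genes, and that of CHAC1 0.71, at the 98.7 percentile, while MTHFD2 (15.2), SHMT2 (27.2) and PSPH (29.9) were in the lower part.

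Among 2774 genes whose group means had an SD of at least 0.25, those most like PHGDH over the 13 groups were H2AFY2 (r 0.986), ZNF738 (0.984), TUBB4A (0.982), FYN (0.98) and CASP2 (0.98). For ASNS they were ST3GAL6 (0.852), KLF5 (0.848), the cystine transporter gene SLC7A11 (0.833), JDP2 (0.826) and LOC105370507 (0.818). The genes closest to TRIB3 were STAP2 (0.855), CTGF (0.836), EIF3CL (0.829), RASSF3 (0.81) and CYP26B1 (0.807).

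Other genes of the pathway were read from lists. Of 16 genes of folate one-carbon metabolism and glycine cleavage, 15 were tested, and AMT, the aminomethyltransferase of the glycine cleavage system, was the one with 2-fold changes in several lines. AMT was at 1.97 TPM ± 0.143 (SD, n = 3) in parental cells and at 5.31 TPM ± 0.467 (SD, n = 3) with isoform 1. It was higher in 7 lines, by 1.09, 1.04, 0.38, 1.11, 0.86, 1.32 and 1.11 in isoforms 1, 2, 3, 7, 8, 10 and 11 (SE 0.12). It did not pass in isoforms 4, 5, 6, 9 and 12, at 0.10, 0.21, 0.18, 0.33 and 0.09. GLDC, the glycine decarboxylase of the same system, was lower in 6 lines, down to −0.65 in isoform 2, and TYMS, the thymidylate synthase, in 6, down to −0.72 in isoform 1. With isoform 1, 6 of the 15 were higher and 7 lower (median −0.13), where 19.8% and 38.7% of all genes were. After rescaling by the median of ratios 7 were higher and 6 lower (median 0.01), where 32% and 25.8% of all genes were. With replicate 2 as the lone isoform 1 library the median was −0.10. Apart from AMT, the genes named from the lists were picked after their values were seen.

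The list of other ATF4 targets had 19 of 23 genes tested. With isoform 1, 11 were higher and 3 lower, where 19.8% and 38.7% of all genes were. The median was 0.27 against −0.107 over all genes. Among the higher ones were the amino acid transporter genes SLC38A2 (0.63), SLC7A5 (0.62) and SLC7A11 (0.61). With replicate 2 as the lone isoform 1 library, the median of this list was 0.03. With isoform 7 the same list had 3 higher and 11 lower (13.4% and 26.2% of all genes). With isoform 11 it had 3 and 9 (14.5% and 24%), and with isoform 2 2 and 8 (19.7% and 35.6%). After rescaling by the median of ratios, isoform 7 had 6 and 7 (24.6% and 17% of all genes). Isoform 11 then had 4 and 7 (25.6% and 16.2%), and isoform 2 9 and 6 (31.1% and 23.8%). Isoform 1 then had 14 higher and 2 lower (32% and 25.8%). GPT2, the mitochondrial alanine transaminase, was lower in 9 lines, down to −0.80 with isoform 2, and after rescaling also in 9, down to −0.68.

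The 11 genes of the eIF2 arm and of ATF4's partners had 6 higher and 3 lower with isoform 1, where 19.8% and 38.7% of all genes were. After rescaling they had 7 higher and 1 lower, where 32% and 25.8% of all genes were. With replicate 2 as the lone isoform 1 library their median log2 fold change was 0.04, against 0.11 with all 3. ATF3, a transcription factor of the same family, was at 54.3 TPM ± 11.2 (SD, n = 3) with isoform 1 against 20.7 TPM ± 1.72 in parental cells, a log2 fold change of 1.33 (SE 0.11), and it was higher in 6 lines. EIF2AK3 (PERK), the kinase that phosphorylates eIF2 under endoplasmic reticulum stress, was lower in 6 lines, down to −0.63 with isoform 1. Of the 12 tRNA synthetases known as ATF4 targets, 9 were higher with isoform 1 and 9 with isoform 2, 7 with isoform 8, and none was lower in any of these lines. Of all genes, 19.8%, 19.7% and 16.9% were higher in those lines and 38.7%, 35.6% and 17.5% lower. Rescaling gave 12, 12 and 7 higher, where 32%, 31.1% and 22.9% of all genes then were. With replicate 2 as the lone isoform 1 library the median of this list was 0.06, against 0.17 with all 3. YARS was the highest, at 0.68 with isoform 1. Of the 8 other cytosolic synthetases, 3, 5 and 4 were higher in those lines and 1 was lower in each. After rescaling these were 6, 6 and 5 higher, with 0, 1 and 1 lower, where 25.8%, 23.8% and 14.4% of all genes were then lower. With replicate 2 as the lone isoform 1 library their median was 0.07, against 0.08 with all 3.

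The IRE1 and ATF6 arm of the unfolded protein response, which works apart from ATF4, went in no single direction with isoform 1. There 4 of 12 genes were higher and 6 lower (median −0.10), against 19.8% and 38.7% of all genes. After rescaling 5 were higher and 4 lower, against 32% and 25.8%. With replicate 2 as the lone isoform 1 library the median was −0.05. With isoform 7, 8 of the 12 were lower and none higher (26.2% and 13.4% of all genes), and with isoform 10 4 were higher and 1 lower (17% and 20.4% of all genes). Rescaling gave 7 lower and 2 higher with isoform 7, where 17% of all genes were then lower and 24.6% higher. With isoform 10 it gave 8 higher and 1 lower, where 23.6% of all genes were then higher and 16.4% lower. HSP90B1, a chaperone of the endoplasmic reticulum, was lower in 10 lines, down to −0.43 with isoform 1, where XBP1 was higher by 0.38.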

How the data were processed

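The members and lists were chosen with earlier results of these data known. The submitters' processing notes name Trimmomatic 0.36, FastQC 0.11.5, kallisto 0.44.0, DESeq2 1.22.2 and the build GRCh38.p12. The authors deposited TPM for 39 libraries in 13 tables of 45446 rows, normalised per library (sums of 999972.6 to 999987.7). TPM does not give a library's read depth. For each line the authors also deposited their comparison with parental cells, per the file headers as mean normalised counts (a signal), log2 fold changes and their errors, a statistic (score) and p-values, raw and adjusted. These entered no fit.

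Rows were joined by position, since 29 names in the isoform 4 and 5 tables differed from those of the parental table, and 12 HNF4A rows were summed. The labels give isoform 4 and 5 libraries a group and no replicate number. Linear models were fitted on log2(TPM + 1), pseudocount 1, with limma 3.58.1 in R 4.3.3 (eBayes with trend), which understates changes of low genes. The 15003 genes that averaged 1 TPM or more across 39 libraries entered 1 fit of 13 groups with 26 residual degrees of freedom. The script was tested on simulated data. A gene passed at a Benjamini-Hochberg adjusted p under 0.05 in its comparison. Isoform classes were compared on 12 line means. The text names the 10 members, HNF4A and pseudogene rows of members. For ASNS, TRIB3 and PHGDH it names the 5 genes closest by Pearson's r over group means. List genes were to be named if they passed and changed by at least 1 (log2, either way) in 2 lines or more. AMT alone met this rule, and the other named list genes were picked after their values were seen. Sequences are from RefSeq (GRCh38.p14) and gene positions from GENCODE 29 (GRCh38). Alternatives were another pseudocount, other filters, median-of-ratios scaling, fits of 1 line alone, a replicate block and leaving out libraries.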

Additional observations from a re-analysis of the deposited data

Results flagged for a closer look

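Members that passed as higher in 1 line and as lower in another were compared between those lines directly, in the fit of all 39 libraries. ASNS was higher in isoform 1 than in isoform 7 by 0.525 on the log2 scale (SE 0.082, limma adjusted p 5.68e-06). PSAT1 was higher in isoform 1 than in isoform 11 by 0.598 (SE 0.077, limma adjusted p 2.69e-07). TRIB3 was higher in isoform 1 than in isoform 2 by 0.486 (SE 0.087, limma adjusted p 0.00016). The lines were picked by their values as the highest and lowest of each gene, so these p-values are descriptions. After median-of-ratios scaling none of the 3 lower calls against parental cells passed: ASNS in isoform 7 was at −0.169 (limma adjusted p 0.0974), PSAT1 in isoform 11 at −0.191 (0.0588) and TRIB3 in isoform 2 at −0.096 (0.397). The authors' deposited tables had similar values, but ASNS in isoform 7 (−0.167, adjusted p 0.0114) and PSAT1 in isoform 11 (−0.188, 0.000389) passed there as lower. TRIB3 in isoform 2 (−0.096, 0.206) did not. In all 3 genes, isoform 1 replicate 2 lay below replicates 1 and 3, at 81.7 against 112 and 128 TPM for ASNS, 137 against 177 and 203 for PSAT1, and 27.6 against 41.8 and 41.4 for TRIB3.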

How the results depend on the processing

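The count of gene-line pairs was 10 higher and 19 lower. Median-of-ratios scaling made it 19 higher and 8 lower, and a minimum absolute log2 fold change of 1 made it 1 and 1; the cause of the first was not tested. Leaving out 1 library at a time gave 8 to 12 pairs higher and 15 to 25 lower. A new fit without the isoform 1 line gave 6 higher in the other lines. Of 5 member-class pairs, 3 passed with no filter on low values and 0 at the minimum fold change, and 4 to 5 on leaving out 1 replicate of each line. SHMT2 in isoform 1 was −0.03 in the reported fit and 0.111 after scaling, and ASNS and TRIB3 in isoform 1 became −0.102 and −0.111 without replicates 1 and 3. The 8 lower calls of PHGDH held in every alternative that was run with the line in it and without a minimum fold change. Same-numbered libraries of a line and the parental cells correlated in their deviations by −0.047 to 0.187, above 0.1 in 4 of 30 pairs. These low values do not settle whether the numbers pair the samples. With the replicate number as a block in the 10 numbered lines, 10 pairs were higher and 18 lower, against 10 and 19 without it, and TRIB3 in isoform 2 was lost (−0.213, limma adjusted p 0.0524). In 3 lines every library was closest to the parental library of its own number. The authors' deposited tables, made from counts, have 26 pairs higher and 13 lower at an adjusted p under 0.05, of which 8 and 11 were also called here, and none in the opposite direction. Depth per library is unknown, so counting error could not be given for the low values of CHAC1 and DDIT3.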

Other observations

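Isoform 1 replicate 2 was set beside replicates 1 and 3 over all 11775 tested protein-coding genes (RefSeq). CHAC1 had the largest gap, with both other libraries at least 1.56 higher on the log2(TPM + 1) scale. JDP2, a transcription factor of the AP-1 family and one of the listed ATF4 targets, came next at 1.06, with 11.7, 5.07 and 13.9 TPM against a parental mean of 5.08. The metallothionein genes MT2A and MT1X followed at 1.03 each. MT2A had 1050, 382 and 782 TPM against a parental mean of 1090, so for this gene replicate 2 was the library away from the parental level. ADM2 (0.72), PCK2 (0.65), SESN2 (0.63) and TRIB3 (0.57) were among the first 14. PCK2, the mitochondrial phosphoenolpyruvate carboxykinase, had 16.2, 9.91 and 16.4 TPM against 8.4 in parental cells. SESN2, a sestrin, had 19.7, 12.1 and 19.2 TPM against 13.4. These genes were ranked on the same values that show them apart, so the ranks are a description of 3 libraries.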
